A study of Mus musculus with 6 samples.

Results

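Chemokines, interleukins and their receptors were examined in mouse pancreatic islets, the small groups of hormone-secreting cells that include the insulin-producing beta cells. The genes were taken by symbol from the table of raw counts: CC and CXC chemokines and their numbered receptors, the CX3C pair, every numbered interleukin or interleukin receptor, and Tnf. This gave 140 of 24407 genes. Islets came from 70-week-old C57BL/6 mice on regular chow, either wild type (WT) or carrying the lmna LCS genotype (LCS), which per the series title leaves lamin C as the only A-type lamin. Each genotype had 3 libraries, and each library pooled the islets of 3 mice, so a value is an average over pooled animals. The mutation was not limited to a cell type by any label, the sex of the mice is not given in the sources used here, and both genotypes otherwise shared strain, age, diet and protocol.

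Chemokines are small secreted proteins that draw leukocytes towards a tissue by binding receptors that span the membrane and couple to G proteins. Interleukins carry signals between immune cells, and also to islet cells: mouse beta cells carry the receptor of interleukin-1, and interleukin-1 with tumour necrosis factor is the textbook trigger of inflammatory signalling in beta cells through the transcription factor NF-kB. In an uninjured islet most of these ligands come from a small number of resident macrophages, from stroma and from the endothelium. A bulk library holds all of these cells, and fewer cells of a type and less RNA per cell cannot be told apart in it.

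The libraries held 26123654 to 68036676 counts, of which 19057533 to 32462401 lay outside the rows of ribosomal RNA and its followers (Rn45s, Lars2 and Mir6236). Those rows took 52.3% to 54.1% of the LCS counts and 7.64% to 18.5% of the WT counts. All levels below are CPM, counts scaled to library size, after TMM scaling between libraries. The 12 markers of islet endocrine cells were all detected. They summed to 171400 to 266300 CPM in LCS and to 145700 to 163600 CPM in WT, with 1 of 12 tested markers called higher. Markers of acinar cells, the exocrine cells around the islets, summed to 566.1 to 970.4 CPM in LCS and to 191.6 to 288.9 CPM in WT, with 16 of 18 tested markers called higher. The member genes together summed to 594.8, 697.2 and 606 CPM in the LCS libraries and to 694.4, 661.2 and 665.2 CPM in the WT libraries, so the groups overlapped. Values per library are given throughout in the order of replicates 1, 2 and 3.

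The members Cxcl1, Cxcl2, Cxcl3 and Il6 are shown by sequence because they hold a shared motif upstream and are among the members whose levels varied alike across the libraries, as described below. That motif and pattern go together in these genes follows from this choice, and a link between them was not tested. Cxcl5 and Ccl2, which also varied in that way, are named only, since their promoters were not listed and so were not searched for the motif. The first 3 code for chemokines that attract neutrophils and Il6 for interleukin-6, and all are on chromosome 5. The lines give the 110 bases before the RefSeq transcript start in GRCm38.p6, a later build than the mm9 named for the counts. Capitals mark the match to GGGANTTTCC, a form of the site that NF-kB proteins bind.
Cxcl1, chr5:90891135-90891244, plus strand: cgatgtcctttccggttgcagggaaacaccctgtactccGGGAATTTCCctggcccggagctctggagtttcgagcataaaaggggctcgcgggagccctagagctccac
Cxcl2, chr5:90903789-90903898, plus strand: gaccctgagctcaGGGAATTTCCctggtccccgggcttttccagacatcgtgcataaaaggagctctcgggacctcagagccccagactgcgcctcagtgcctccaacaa
Cxcl3, chr5:90785991-90786100, plus strand: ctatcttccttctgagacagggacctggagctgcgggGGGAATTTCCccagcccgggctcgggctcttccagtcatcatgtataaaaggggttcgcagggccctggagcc
Il6, chr5:30013004-30013113, plus strand: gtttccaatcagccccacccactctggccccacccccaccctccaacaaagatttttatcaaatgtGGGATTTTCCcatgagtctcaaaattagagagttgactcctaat
The match begins 71 bases before the start in Cxcl1, 97 in Cxcl2, 73 in Cxcl3 and 44 in Il6. Searched on both strands over the 250 bases before each start, the motif was present in 0.356% of the 32851 promoters listed. That share is per promoter, while the members are counted per gene, with a match in any listed promoter of the gene. Of the 107 member genes with a listed promoter 6 held it, the others being Il16 and Ccr3. Ccr3 had too few counts to be tested. Il16 had 0.909, 0.923 and 1.15 CPM in LCS and 1.04, 0.592 and 1.02 CPM in WT. A match describes letters in a window and does not show that a factor was bound.

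No member passed the test of LCS against WT. Of the 140 genes, 29 had no count in any library, 40 had too few counts to be tested, and 71 were tested with 0 called higher and 0 called lower at an adjusted p under 0.05 (edgeR quasi-likelihood test, adjusted over all 14539 genes tested). Across all tested genes 2.21% were called, 2.06% higher and 0.144% lower. Before adjustment, 9 members had a p under 0.05 with LCS higher and 3 with LCS lower, which is 12.7% and 4.23% of the members tested, beside 13.3% and 10.8% of all genes tested. DESeq2 called 3 higher and 1 lower (5.63% of the members, beside 10.4% of all genes), and limma-voom 1 higher (1.41%, beside 2.75%). Groups did not overlap for 10 members, 6 with every LCS library above every WT library (8.45%, against 14.6% of all genes tested) and 4 the other way (5.63%, against 12%), the latter being Il17ra, Il6ra, Il7r and Ccr1. These shares were near or under those of the whole table. The median log2 fold change was 0.17 over the members tested and 0.01 over all genes tested.

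**Figure D1:**
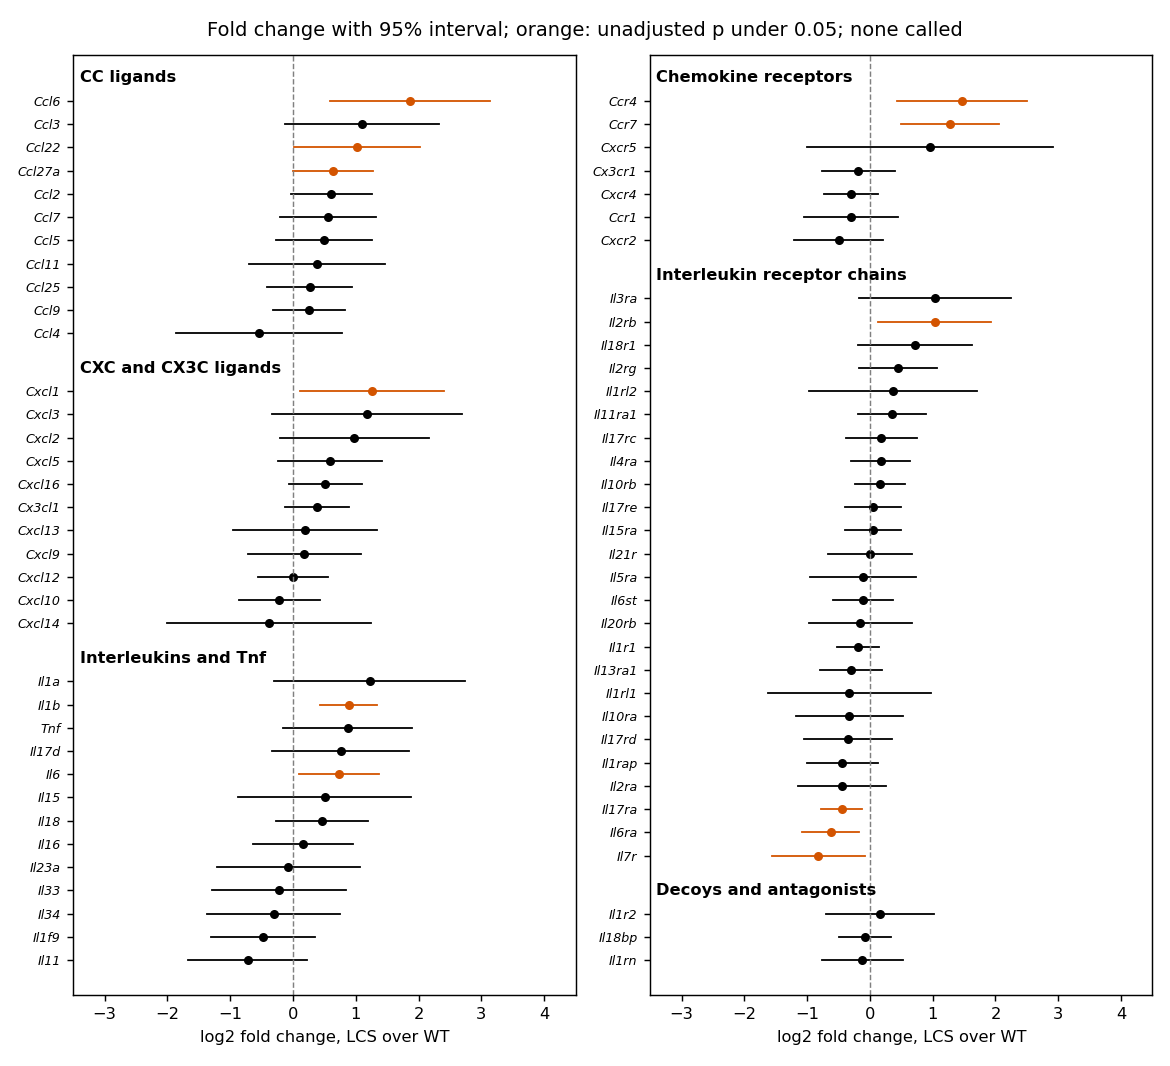
Log2 fold change (LCS over WT, x axis) of tested members by role, with the 95% interval of the edgeR fit as a line and members with an unadjusted p under 0.05 in orange. Of the 35 tested ligands 27 lie above 0, and receptors lie on both sides of it; no member passed the adjusted threshold.

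Ligands and receptors differed in where their values lay. Of 35 tested ligands, 27 had a log2 fold change above 0 with a median of 0.50, and of 33 tested receptors 15 did with a median of -0.11, against 51.1% of all genes tested. This difference between roles was not tested. Transcript length moved with it: the median length was 1150 nt for the ligands, 2372.5 nt for the receptors and 1491.5 nt for all genes tested. With an offset for transcript length, the ligand median was 0.27, the receptor median -0.03 and the median of the protein-coding genes tested -0.03. No member was called with that offset, beside 0.521% of those genes. With offsets for both length and GC content the ligand median was 0.40, the receptor median -0.02 and the median of those genes -0.02. The ligand median ranged from 0.30 (without LCS replicate 2) to 0.67 (without WT replicate 1) as each library was left out. It was 0.90 without WT replicates 1 and 2, whose sample titles carry numbers distant from the other 4, with no meaning given in the labels.

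**Figure D2:**
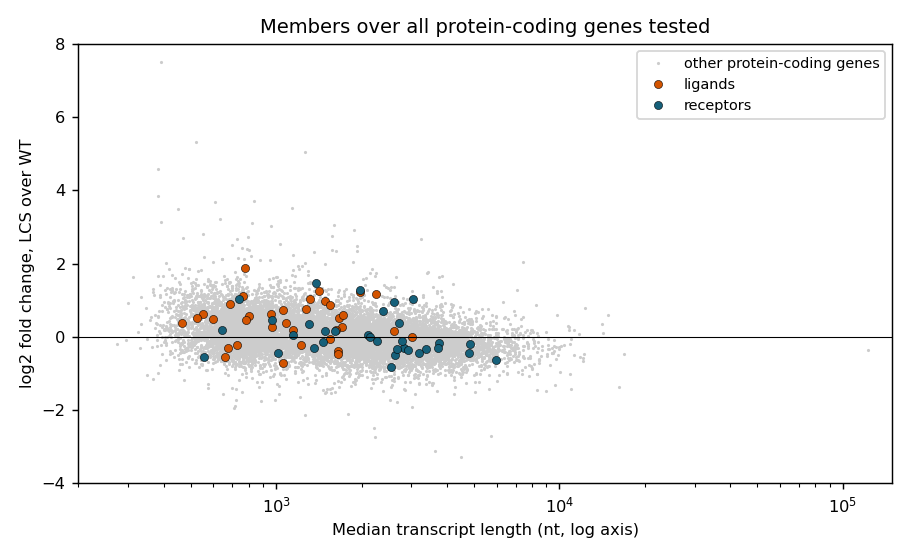
Log2 fold change (LCS over WT, y axis) against median transcript length (nt, log axis) for all protein-coding genes tested (grey), ligands (orange) and receptors (blue). Ligands have a median length of 1150 nt and a median fold change of 0.50, and receptors 2372.5 nt and -0.11.

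Among the interleukins, Il1b (gene 16176) came nearest to the threshold. It codes for interleukin-1 beta, the secreted cytokine that macrophages release when the inflammasome is active. Its level was 5.59, 6.80 and 6.95 CPM in LCS and 3.14, 3.87 and 3.45 CPM in WT. The lowest LCS library thus lay above the highest WT library. The log2 fold change was 0.89 (SE 0.20), or 1.85-fold, with an edgeR adjusted p of 0.0552. Il1b was called in 5 of 17 alternative analyses: DESeq2 (adjusted p = 0.00443), limma-voom (0.0498), no low-count filter (0.041), an offset for length and GC content (0.0307), and the fit without WT replicate 1 (0.0243). Leaving out each library in turn gave log2 fold changes of 0.82 to 1.01, with adjusted p of 0.0243 to 0.191 (edgeR).

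Several values moved with Il1b. Among the genes with the most similar pattern of log2 CPM over the 6 libraries were Erp27 (Pearson r = 0.996) and 2010320M18Rik (0.993), given as a description. The summed level of the acinar markers was higher in every LCS library than in every WT library, with the values given above. The summed level of 19 macrophage markers was 125.8 to 131 CPM in LCS and 102.4 to 114.4 CPM in WT, and none of these markers was at 0. They did not move one way: Lyz2 and Lyz1, the lysozyme genes, were called higher (2.79-fold and 4.01-fold, edgeR adjusted p = 0.0142 and 0.0416), while Itgax had a log2 fold change of -1.01 and Mpeg1 of -0.80 (edgeR adjusted p = 0.0775 and 0.102). The part of acinar and macrophage content in the Il1b values was not tested. Il1b also overlaps Il1bos, a gene with 3 to 10 counts per library, on the chromosome.

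The other inflammatory cytokines varied more. Il6 (gene 16193) had 6.71, 16.5 and 11.1 CPM in LCS and 6.55, 7.75 and 6.51 CPM in WT. LCS replicates 2 and 3 were above all WT libraries, and LCS replicate 1 was among them. This gave a log2 fold change of 0.73 (SE 0.29, edgeR adjusted p = 0.166). Tnf (gene 21926), the tumour necrosis factor gene, had 0.629, 0.864 and 0.51 CPM in LCS and 0.229, 0.543 and 0.34 CPM in WT, from 11 to 44 counts per library. Its groups overlapped narrowly, with a log2 fold change of 0.87 and an interval of -0.16 to 1.90 (edgeR adjusted p = 0.272). A difference in Tnf was not detected.

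Il11 codes for a cytokine of the interleukin-6 family that signals through the shared chain gp130. Among the interleukins it had the highest mean level, at 13.1, 10.6 and 10.9 CPM in LCS and 34.7, 7.97 and 14.1 CPM in WT. WT replicate 1 stood far above the other 5 libraries. The log2 fold change was -0.72 (SE 0.43, edgeR adjusted p = 0.326) with all libraries and 0.06 without WT replicate 1. In that library the 12 markers of stellate cells and fibroblasts summed to 110.6 CPM, against 36.1 and 50.9 CPM in the other WT libraries and 45.5 to 73.1 CPM in LCS. Col1a1 and Col3a1 had the highest levels in that sum, and other markers, such as Rgs5 and Pdgfrb, were highest in other libraries. The chemokine gene Cxcl14 was singled out after its values were seen. It was also highest in WT replicate 1, at 6.82 CPM against 1.02 to 4.27 CPM elsewhere. Its log2 fold change was -0.38 (edgeR adjusted p = 0.778) and 1.09 without that library. The part of stromal content in these values was not tested.

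**Figure D3:**
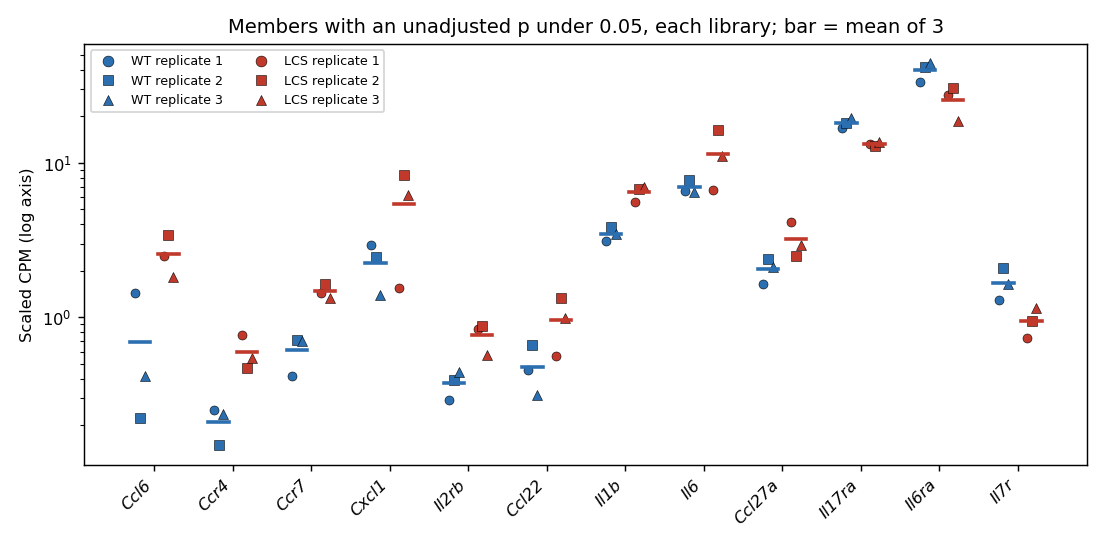
Level in every library (scaled CPM, log axis) of the 12 members with an unadjusted p under 0.05, where blue is WT, red is LCS, bars are group means of 3 libraries and symbols mark the replicate. Il1b, Ccl6, Ccr7, Ccr4, Il2rb and Ccl27a show no overlap with LCS above, and Il17ra, Il6ra and Il7r none with LCS below; none passed the adjusted threshold.

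Of the CC chemokine ligands, 11 of 24 were tested, 8 had no count in any library, and 10 of the 11 had a log2 fold change above 0. Their summed level was 28.1, 36.8 and 44.6 CPM in LCS and 27.4, 25.3 and 19.9 CPM in WT. Every LCS library was above every WT library, though LCS replicate 1 and WT replicate 1 lay close together. Ccl2, which draws monocytes through Ccr2, and Ccl5, which draws T cells and monocytes, had the highest mean levels. Ccl2 had 6.61, 10.8 and 15.0 CPM in LCS and 7.67, 8.14 and 5.43 CPM in WT (log2 fold change 0.61, SE 0.29, edgeR adjusted p = 0.229). Ccl5 had 6.36, 6.52 and 14.7 CPM in LCS and 8.21, 6.59 and 4.68 CPM in WT (0.50, SE 0.34, edgeR adjusted p = 0.395). In both genes LCS replicate 3 was highest and LCS replicate 1 lay within the WT range. Without LCS replicate 3 the log2 fold change of Ccl5 was -0.0041.

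Ccl6 (gene 20305), a chemokine of mouse macrophages and other myeloid cells, had the largest fold change among the tested members. Its level was 2.48, 3.40 and 1.82 CPM in LCS and 1.44, 0.222 and 0.418 CPM in WT, with no overlap between the groups. It differed by 1.87 on the log2 scale (SE 0.57), or 3.65-fold, with an edgeR adjusted p of 0.103. Without WT replicate 1 it was 3.01 (edgeR adjusted p = 0.00199), and DESeq2 called it with all libraries (1.87, adjusted p = 0.013). Its gene span overlaps that of E230016K23Rik, and since the strand setting of the counting is not given, reads of overlapping genes cannot be told apart here. Ccl22, a product of dendritic cells and macrophages that binds Ccr4, had 0.559, 1.34 and 0.989 CPM in LCS and 0.457, 0.666 and 0.314 CPM in WT (1.02, SE 0.45, edgeR adjusted p = 0.202). Ccl27a, a ligand of Ccr10, had 4.16, 2.49 and 2.93 CPM in LCS and 1.64, 2.39 and 2.12 CPM in WT (0.63, SE 0.28, edgeR adjusted p = 0.205). Over the 17 alternatives its log2 fold change ran from 0.18 to 0.82. Ccl22 overlapped between the groups and Ccl27a did not, but Ccl27a overlaps the receptor gene Il11ra1 in the genome and has the near-identical copy Ccl27b, so its count is uncertain.

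The tested CXC ligands that bind Cxcr2, the receptor that guides neutrophils, differed more between LCS libraries than between the means of the genotypes. Cxcl1 (gene 14825) had 1.54, 8.41 and 6.22 CPM in LCS and 2.95, 2.44 and 1.39 CPM in WT. LCS replicate 1 was thus among the lowest libraries and LCS replicates 2 and 3 were the highest. On the log2 scale the fold change was 1.26 (SE 0.51, edgeR adjusted p = 0.178). It went from 0.81 to 1.71 as each library was left out, with edgeR adjusted p of 0.0765 to 0.436. Cxcl2, Cxcl3 and Cxcl5, named after their values were seen, had 2.75, 1.41 and 5.52 CPM in LCS replicate 2 and 0.524, 0.14 and 1.82 CPM in LCS replicate 1. Their log2 fold changes were 0.98, 1.18 and 0.58, with edgeR adjusted p of 0.284, 0.308 and 0.356. As each library was left out, that of Cxcl2 ran from 0.48 to 1.41, that of Cxcl3 from 0.27 to 1.65 and that of Cxcl5 from 0.30 to 0.95.

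Over the 6 libraries, the log2 CPM of Cxcl1 had a similar pattern to that of Cxcl2 (Pearson r = 0.988), Cxcl5 (0.987), Cxcl3 (0.959), Il6 (0.916) and Ccl2 (0.897), and with Csf3 (0.964), the gene of a growth factor of neutrophils that is no member. These partners were chosen after their values were seen, and the gene nearest to Cxcl1 among all genes tested was Psph (0.989), an enzyme gene of serine synthesis. These values describe 6 libraries and carry no p, and the genes share library and depth. Cxcl1, Cxcl2, Cxcl3 and Il6 are the genes whose upstream sequences with the NF-kB type motif are printed above, picked for both motif and pattern. Across all tested members LCS replicate 2 was the highest of the 6 libraries for 23 of 71 genes (32.4%), while it was the highest for 10.9% of all genes tested. Of 7 neutrophil markers in the table, Mpo, Ngp and Retnlg had no count in any library, and the sum was 0.769, 0.864 and 0.989 CPM in LCS and 0.146, 0.271 and 0.914 CPM in WT.

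**Figure D4:**
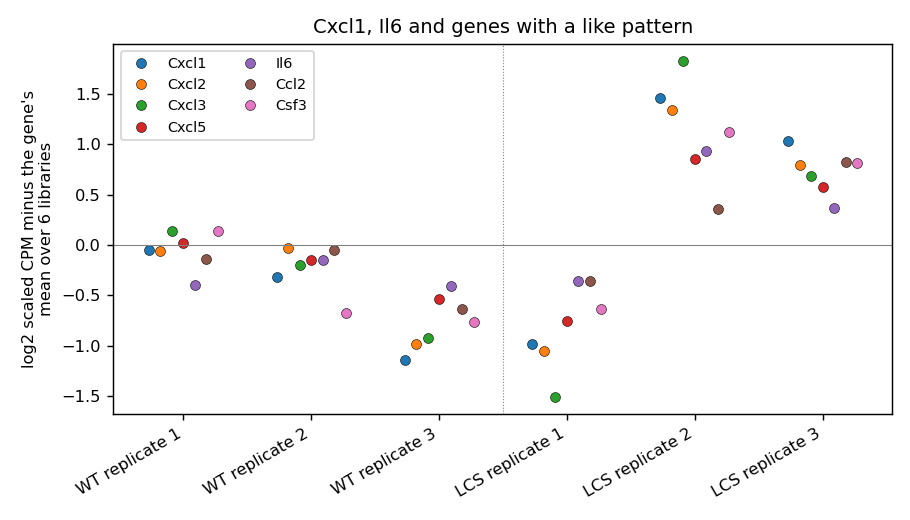
Log2 scaled CPM minus the mean of the gene over the 6 libraries (y axis) for Cxcl1, Cxcl2, Cxcl3, Cxcl5, Il6, Ccl2 and Csf3 in each library, with points of 1 gene in 1 colour. All 7 genes lie above their mean in LCS replicates 2 and 3 and below it in LCS replicate 1, where Cxcl1 had 1.54 CPM against 8.41 in LCS replicate 2.

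The remaining CXC and CX3C ligands were nearer to equal. Cxcl16, a membrane-bound ligand of Cxcr6, had 9.02, 11.7 and 13.4 CPM in LCS and 11.3, 6.49 and 6.09 CPM in WT. Its log2 fold change was 0.52 (SE 0.26, edgeR adjusted p = 0.26), and 0.86 without WT replicate 1, where it was called (edgeR adjusted p = 0.0175). Cx3cl1, the ligand of the macrophage receptor Cx3cr1, had 8.57, 7.82 and 9.79 CPM in LCS and 7.98, 7.38 and 4.68 CPM in WT (0.38, SE 0.23, edgeR adjusted p = 0.329). Cxcl12, a stromal chemokine that holds cells bearing Cxcr4, averaged 8.08 ± 1.62 CPM in LCS and 8.08 ± 2.52 CPM in WT (SD, n = 3). The 95% interval of its log2 fold change, -0.56 to 0.56, leaves room for changes within 1.5-fold in either direction. For the interferon-induced ligands Cxcl9 and Cxcl10 the log2 fold changes were 0.18 and -0.22 (edgeR adjusted p = 0.809 and 0.671).

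Of 18 chemokine receptors 8 were tested and Cxcr1 had no count in any library. Ccr7 (gene 12775), which leads dendritic cells and lymphocytes to lymph nodes, had 1.43, 1.65 and 1.34 CPM in LCS and 0.416, 0.716 and 0.705 CPM in WT. The groups did not overlap, and the log2 fold change was 1.28 (SE 0.35), or 2.42-fold, with an edgeR adjusted p of 0.0837. DESeq2 called it (1.26, adjusted p = 0.0257). Ccr4 (gene 12773), found on T cells, had 0.769, 0.471 and 0.542 CPM in LCS and 0.25, 0.148 and 0.235 CPM in WT, or 6 to 24 counts per library. It did not overlap either (1.46, SE 0.46, edgeR adjusted p = 0.111). Beside these, 8 markers of B and plasma cells summed to 31.8, 71.1 and 41.9 CPM in LCS and 27.4, 10.7 and 11.6 CPM in WT, and 13 markers of T and NK cells to 6.12 to 8.52 CPM in LCS and 3.74 to 5.84 CPM in WT. The T and NK list had 1 marker at 0 in all libraries. No marker of either list was called, with 7 of the 8 B and plasma and 6 of the 13 T and NK markers tested. Of 6 markers of leukocytes in general, 4 had a log2 fold change above 0 and 2 below it. Among them Cd52 was called higher (2.82-fold, edgeR adjusted p = 0.0222), while Ptprc had -0.44 (edgeR adjusted p = 0.347). The part of lymphocyte content in the values of Ccr7 and Ccr4 was not tested.

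The most abundant chemokine receptors were Cxcr4 and Cxcr2. Cxcr4, the receptor of Cxcl12, had 18.6, 13.3 and 11.6 CPM in LCS and 17.9, 19.3 and 16.4 CPM in WT (log2 fold change -0.30, SE 0.19, edgeR adjusted p = 0.366). Cxcr2 had 9.37, 5.52 and 7.91 CPM in LCS and 5.84, 12.4 and 13.8 CPM in WT. WT replicate 1 lay among the LCS libraries. The log2 fold change of Cxcr2 was -0.49 (SE 0.32, edgeR adjusted p = 0.363), and -0.79 without WT replicate 1, where it was called (edgeR adjusted p = 0.0309). Cx3cr1, a receptor of islet macrophages, averaged 1.64 ± 0.0427 CPM in LCS and 1.87 ± 0.246 CPM in WT (SD, n = 3, edgeR adjusted p = 0.692).

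Interleukin receptor chains held most of the RNA of the set, with 394.4 to 495.6 CPM in LCS and 486.6 to 511.4 CPM in WT. The greatest part was Il1r1 (gene 16177), the signalling receptor of interleukin-1. Il1r1 had 235.3, 283.7 and 226.7 CPM in LCS and 273.4, 272.8 and 305.6 CPM in WT. The groups overlapped, with a log2 fold change of -0.19 (SE 0.15, 95% interval -0.52 to 0.14, edgeR adjusted p = 0.452). Its sign changed with an offset for length (0.03). Per kilobase of the longest transcript, the level of Il1r1 was 42.7 CPM in LCS and 48.8 CPM in WT. This was the highest of the members on that scale, ahead of Il18bp (12.4 and 13.1 CPM per kb), Ccl5 (13.8 and 9.72) and Cxcr4 (8.04 and 9.90).

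Neither chain of the interleukin-6 receptor was called. Il6ra (gene 16194), which binds interleukin-6, had 27.7, 30.7 and 18.7 CPM in LCS and 33.2, 41.6 and 44.3 CPM in WT, with no overlap. Its log2 fold change was -0.63 (SE 0.20), with an edgeR adjusted p of 0.118. DESeq2 called it lower (-0.65, adjusted p = 0.0423), as did edgeR without WT replicate 1 (-0.74, adjusted p = 0.0281). Over the 17 alternatives the log2 fold change of Il6ra ran from -0.78 to -0.39. Il6 and Il6ra thus had fold changes of opposite sign, and neither was called. Il6st, which codes for gp130, the chain that interleukin-6, interleukin-11 and related cytokines share, had 57.1, 71.2 and 37.4 CPM in LCS and 60.6, 62.3 and 56.3 CPM in WT (-0.11, SE 0.21, edgeR adjusted p = 0.776). Its groups overlapped, and its sign changed in 2 alternatives.

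Il17ra (gene 16172), a chain of the interleukin-17 receptors, had 13.3, 12.9 and 13.7 CPM in LCS and 16.8, 18.1 and 19.5 CPM in WT. These groups were tight and apart, and the log2 fold change was small, at -0.45 (SE 0.15), with an edgeR adjusted p of 0.117. Without WT replicate 1 it was called (-0.50, edgeR adjusted p = 0.0414). Over the 17 alternatives it ran from -0.55 to -0.22. Il7r, the lymphocyte receptor of interleukin-7, had 0.734, 0.943 and 1.15 CPM in LCS and 1.29, 2.07 and 1.65 CPM in WT (-0.82, SE 0.33, edgeR adjusted p = 0.174). Il2rb, the chain shared by the receptors of interleukin-2 and interleukin-15, lay the other way, at 0.839, 0.884 and 0.574 CPM in LCS and 0.291, 0.395 and 0.444 CPM in WT (1.03, SE 0.40, edgeR adjusted p = 0.162). Neither Il7r nor Il2rb overlapped between the groups. Il3ra, the interleukin-3 binding chain, was singled out after its values were seen, at 5.35, 3.54 and 8.17 CPM in LCS and 5.47, 1.73 and 1.02 CPM in WT. Its log2 fold change was 1.03 (SE 0.54, edgeR adjusted p = 0.271) and 2.04 without WT replicate 1 (edgeR adjusted p = 0.0066).

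None of the 3 tested natural inhibitors had an unadjusted p under 0.05. Il18bp, the secreted protein that neutralises interleukin-18, averaged 32.2 ± 6.37 CPM in LCS and 33.9 ± 5.39 CPM in WT (SD, n = 3). Its log2 fold change was -0.07, with a 95% interval of -0.49 to 0.34 (edgeR adjusted p = 0.836). Il1rn, the antagonist that blocks Il1r1, averaged 4.52 ± 1.08 and 4.92 ± 1.75 CPM, and Il1r2, the decoy receptor of interleukin-1, 1.58 ± 0.711 and 1.43 ± 0.308 CPM in LCS and WT (edgeR adjusted p = 0.823 and 0.827). For interleukin-1 this placed the ligand Il1b at 0.89, the receptor Il1r1 at -0.19, the antagonist Il1rn at -0.12 and the decoy Il1r2 at 0.16 on the log2 scale. The signs of Il1r1, Il1rn and Il1r2 changed in some alternatives.

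**Figure D5:**
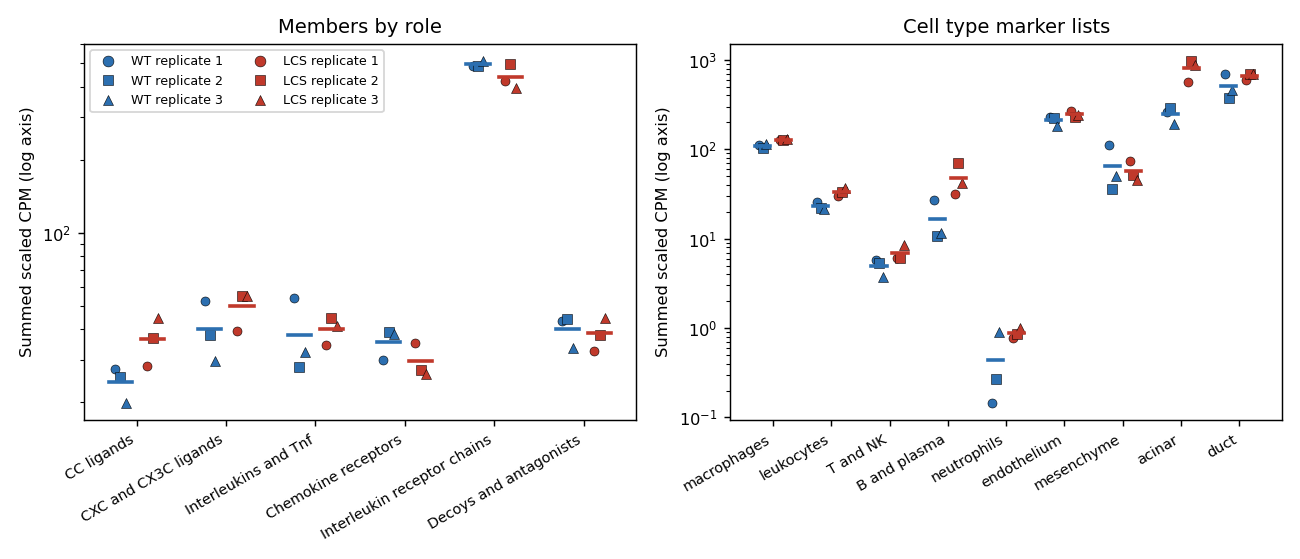
Summed scaled CPM per library (log axis) of the members by role (left) and of 9 lists of cell type markers (right), where blue is WT, red is LCS and bars are group means of 3 libraries. CC ligands lie higher in every LCS library (28.1 to 44.6 against 19.9 to 27.4 CPM). So do the macrophage, leukocyte, T and NK, B and plasma, endothelial and acinar lists. The gap is narrow for the endothelial list (lowest LCS 231.5, highest WT 230.3 CPM) and the T and NK list (6.12 and 5.84 CPM). Interleukin receptor chains overlap.

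Untested members were scarce. The 40 with some counts had at most 28 in any library. They include Il10 with 3 to 13 counts, Ccr2 with 1 to 14, Ccl8 with 3 to 28 and Il7 with 3 to 11. Of ligands typical of activated T cells, Il2, Il3, Il4, Il9, Il13, Il17a and Il17f had no count in any library, while Il21 had 3 to 12 counts in each and Il5 and Il22 had at most 2 in any. A count of 0 allows up to 3 counts, which is 0.0589 to 0.105 CPM depending on the library, and covers counting error only. The 3 copies of Ccl21 and the copy Il11ra2 were also at 0, but near-identical copies share reads and may go uncounted.

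Signalling genes downstream of these receptors, in lists built by pathway, were not called either. None of 36 genes of the interleukin-1, Toll-like and tumour necrosis factor receptor pathways to NF-kB was called, and their median was -0.06 on the log2 scale. Unadjusted p-values under 0.05 numbered 4 with LCS higher and 3 with LCS lower (11.1% and 8.33%, beside 13.3% and 10.8% of all genes tested). Chuk, a kinase that activates NF-kB, had -0.76 (SE 0.19), the receptor Tlr3 -0.70 (SE 0.19) and the adaptor Tradd 0.72 (SE 0.21), with edgeR adjusted p of 0.0711, 0.0771 and 0.0994. None of 23 genes of the JAK kinases, STAT factors and their inhibitors was called (median -0.11). Here 2 higher and 2 lower had an unadjusted p under 0.05, or 8.7% each way, also under the shares of all genes tested. Socs7 had -0.58, Stat2 -0.46 and Cish 0.63, with edgeR adjusted p of 0.115, 0.14 and 0.149.

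Of 25 tested cytokines, chemokines and receptors with other names none was called (median 0.13). An unadjusted p under 0.05 was found for 2 higher and 1 lower (8% and 4%, beside 13.3% and 10.8% of all genes tested). Mif, the gene of macrophage migration inhibitory factor, which beta cells also make, had 150.8, 128.4 and 160.4 CPM in LCS and 96.51, 53 and 45.04 CPM in WT. Its groups did not overlap, at a log2 fold change of 1.18 (SE 0.26, edgeR adjusted p = 0.0517). Mif was called higher in 6 of 17 alternatives, among them DESeq2 (1.16), limma-voom (1.25), the fit without WT replicate 1 (1.58) and the length and GC offset, where its fold change was smaller (0.57). Csf3 had 0.99 and the chemerin receptor Cmklr1 -0.59 (edgeR adjusted p = 0.205 and 0.18). Over these 3 lists DESeq2 called 4 higher and 3 lower of 84 tested, and limma-voom 1 higher, where they called 10.4% and 2.75% of all genes.

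Leaving out WT replicate 1 changed the calls more than leaving out any other library. Without it 4 members were called higher (Ccl6, Il1b, Cxcl16 and Il3ra) and 3 lower (Il17ra, Il6ra and Cxcr2), or 9.59% of 73 members tested, while 20.2% of all genes tested were called. In that library the ribosomal rows took 18.5% of the counts, against 7.64% and 9.999% in the other WT libraries. The mesenchymal markers had their highest sum there, though not each marker was highest. The part of either in these calls was not tested. Without any other single library 0 members were called in either direction.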

How the data were processed

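Poly(A) RNA of islets was analysed, with TRIzol extraction and a stranded TruSeq kit, per the labels' protocols. The authors deposited raw read counts, whole numbers without scaling, for 24407 genes. Per the submitters' processing notes the build was mm9 and the tools were HTSeq 0.9.0, Bowtie2 2.2.9, TopHat2 2.1.1, FastQC and bcl2fastq 2.20, with no roles stated. The sources used here give neither strand setting nor annotation. Counts of overlapping genes are therefore uncertain. Besides those named above, this holds among others for Il11, Cxcl16, Cxcl10 and Il1r2. Their gene spans overlap those of Tmem190, Zmynd15, Art3 and Gm16894 in that order. Columns were matched to samples by title, and replicates were numbered in accession order. The labels do not say whether the pools of a genotype held different mice, so p-values measure the spread between these libraries.

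LCS was compared with WT by edgeR 4.0.16 in R 4.3.3 (filterByExpr, TMM, quasi-likelihood fit with genotype as its only term, Benjamini-Hochberg over all genes tested). TMM factors were 0.633 to 0.749 in LCS and 1.395 to 1.498 in WT, and the common biological coefficient of variation was 21.2%. Fold changes (LCS over WT), standard errors and 95% intervals come from that fit. Lengths were medians over GENCODE M21 transcripts matched by gene number (137 of 140 members), and levels per kilobase used the longest transcript. DESeq2 1.42.0 and limma 3.58.1 served as alternatives, and figures used matplotlib 3.10.9. The steps were tested on simulated data.

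Members and lists were chosen with earlier results of these data known. Named by rule were members called or with an unadjusted p under 0.05, in each role the 3 with the highest mean CPM and the 2 with the smallest p, and Tnf, Il1b and Il6; of other lists, the 3 with the smallest p. Genes named outside it are marked or given as examples. Similar patterns were sought for 3 genes picked after their values were seen. By name, 1 member and 1 marker gene are not reported here, but are in the counts.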

Additional observations from a re-analysis of the deposited data

How the results depend on the processing

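In 17 alternatives, 509 of 553 fold changes of 33 named members kept their direction and their side of the threshold, 16 became called and 28 changed sign. Counts of members called higher and lower were 3 and 1 with DESeq2, and 1 and 0 with limma-voom, without a low-count filter and with a length and GC offset. They were 2 and 0 without WT replicates 1 and 2, which were left out together because of their distant title numbers, and where the single WT library left is assumed to vary like the LCS libraries, and 0 to 4 higher and 0 to 3 lower when each library was left out. The other pathway genes gave 4 higher and 3 lower with DESeq2, 1 and 0 with limma-voom, 1 and 1 without the filter, 2 and 6 with the length and GC offset, 8 and 1 without WT replicates 1 and 2, and 0 to 12 higher and 0 to 3 lower when each library was left out. Over all genes tested these settings called 10.4%, 2.75%, 3.61%, 5.53% and 7.93%, and 0.554% to 20.2% when each library was left out, beside 2.21% in the main analysis. The length offset and the test against a 1.5-fold change called 0.521% and 0.433% of genes and 0 members. The summed levels moved by less than the spread between replicates with DESeq2 size factors or without the ribosomal rows.

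The sign changes were of 11 members. Cxcl12 was at -0.0181 with DESeq2, -0.018 with its size factors, -0.0046 without the filter, and -0.144, -0.151 and -0.0915 without LCS replicate 2, WT replicate 2 and WT replicate 3. With the length offset Cx3cl1 was at -0.0153, Il1r2 at -0.0252 and Il1r1 at 0.0285, and with length and GC offsets Cx3cl1 was at -0.216, Il6st at 0.0411, Il13ra1 (-0.31 in the main test) at 0.115 and Il1r1 at 0.185. Il18bp was at 0.0634, 0.0069, 0.031 and 0.204 without LCS replicate 1, LCS replicate 2, WT replicate 2, and WT replicates 1 and 2. Without LCS replicate 2, Il1r2 was at -0.177 and Cxcl14 at 0.0196. Without LCS replicate 3, Ccl5 was at -0.0041, Il1rn at 0.0431 and Il6st at 0.114. Without WT replicate 1, Il1r2 was at -0.0052, Il11 at 0.0632, Il1rn at 0.218 and Cxcl14 at 1.09, and without WT replicates 1 and 2, Il1rn was at 0.193 and Cxcl14 at 1.12. The opposite ends of these ranges when each library was left out were 0.731 for Ccl5, 0.292 for Cxcl12, -1.09 for Il11, -0.232 for Il18bp, -0.294 for Il1rn, 0.472 for Il1r2 and -1.08 for Cxcl14. The cause of these changes was not tested. Many members had under 100 counts per library, which limits what could be detected. Replicate numbers in the labels do not pair the genotypes.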
